A study of Mus musculus with 6 samples.

Results

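Periostin (Postn) and 9 other genes for matricellular and related matrix proteins (Tnc, Spp1, Thbs1, Thbs2, Thbs4, Sparc, Fn1, Fbn1 and Bgn) were followed through muscle stem cells (MuSCs) of healthy and dystrophic mice. They are 10 of the 22706 genes in the deposited table. The members were selected on values of these same libraries, among them the high Postn of mdx MuSCs and its lower level in the third group, so what follows describes them and their contrasts are not independent evidence of a change. All 10 had a mean of at least 5, the minimum for the fit across all genes, which 15915 genes reached.

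The series holds RNA of 3 groups with 2 libraries each (6 in all), from MuSCs sorted straight from the muscle of mice given as strain C57BL/6. Control libraries were wild type. The mdx libraries came from mice that lack functional dystrophin through an inherited change in Dmd. The Sirt6mKO/mdx-labelled libraries carried the same Dmd change plus a Sirt6 allele with loxP-flanked exons, deleted by a Cre recombinase under the Pax7 promoter (Pax7ICN), which acts in the MuSC lineage from development on and not only in the adult. According to the methods, controls were littermates, and cells negative for Sca1, CD45 and CD31 were taken by integrin alpha-7 and CD34 or by a reporter, without saying which gate served which group. The labels give no age, and the legends of the study's figures name adult mice. The study calls the RNA-seq replicates biological without saying whether each was 1 animal or a pool, so the errors below measure the spread between these libraries.

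Matricellular proteins are secreted into the extracellular matrix but act less as its scaffold than as adaptors: they bind collagens, growth factors and cell-surface integrins and so tune adhesion, migration and signaling. Many are scarce in resting adult tissue and are made again after injury. In skeletal muscle they are made by MuSCs, fibro-adipogenic progenitors, tendon cells and macrophages, and they form part of the niche in which MuSCs rest or divide. Fibronectin and fibrillin-1 are structural matrix proteins whose fibrils several of the others bind.

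Some facts of the libraries bear on every comparison. About 4397632 to 9743941 reads per library lay behind the values, which are read counts divided by 1 size factor per library (normalized read counts). The Sirt6 transcript was at 41 and 32 in the control pair, 33 and 40 in the mdx pair and 37 and 30 in the Sirt6mKO/mdx-labelled libraries, so its level over the whole gene did not mark the deletion. Dmd, whose mdx allele is still transcribed, was between 2038 and 2883 everywhere. Xist, transcribed from the inactive X chromosome of females, was at 16772 and 12950 in control against 7 and 8 in mdx and 33 and 34 in the Sirt6mKO/mdx-labelled libraries. The Y-linked Ddx3y was at 3 and 8, then 1024 and 1055, then 1555 and 1767. The methods describe males. A difference from control and this X and Y difference cannot be told apart. All 13 MuSC markers were present, with Pax7 between 2167 and 3236, but not all were level. Chrdl2 was at 684 and 728 in the control pair, 136 and 137 in the mdx pair and 354 and 160 in the Sirt6mKO/mdx-labelled libraries. It was the 1 marker called lower in mdx than in control (-2.36, adjusted p = 0.00018 in limma, criteria below). Between the dystrophic groups 1 of the 13 was called lower, and 3 were in the third group against control. None was called higher. In RNA of bulk cells, fewer cells of a type and less RNA per cell cannot be told apart.

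Postn encodes periostin, a secreted protein with fasciclin domains that binds integrins and collagen I and is known from healing and fibrotic tissue. Tnc encodes tenascin-C, a large glycoprotein that appears around MuSCs during regeneration. Spp1 encodes osteopontin, a phosphoprotein that binds integrins and CD44. These 3 were higher in mdx than in control, and the 250 bases upstream of their RefSeq start sites (build GRCm38.p6, on the strand of each gene) are printed because these members were called higher than control in both dystrophic groups. They lie at chr3:54360857-54361106 (Postn, plus strand), chr4:64047016-64047265 (Tnc, minus strand) and chr5:104434861-104435110 (Spp1, plus strand). Capitals mark TATAAA, the letters of a TATA box, which was searched on both strands together with TGANTCA (AP-1) and CATTCC (TEAD).
Postn: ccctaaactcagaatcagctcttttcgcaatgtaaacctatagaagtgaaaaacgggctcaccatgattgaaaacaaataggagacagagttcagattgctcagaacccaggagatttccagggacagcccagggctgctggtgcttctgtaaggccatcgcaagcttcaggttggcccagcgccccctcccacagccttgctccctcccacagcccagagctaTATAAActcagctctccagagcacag
Tnc: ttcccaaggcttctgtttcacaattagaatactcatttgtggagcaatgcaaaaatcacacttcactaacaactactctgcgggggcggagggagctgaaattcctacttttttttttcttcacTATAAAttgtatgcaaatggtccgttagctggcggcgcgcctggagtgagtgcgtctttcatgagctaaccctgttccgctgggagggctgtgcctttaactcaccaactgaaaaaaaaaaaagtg
Spp1: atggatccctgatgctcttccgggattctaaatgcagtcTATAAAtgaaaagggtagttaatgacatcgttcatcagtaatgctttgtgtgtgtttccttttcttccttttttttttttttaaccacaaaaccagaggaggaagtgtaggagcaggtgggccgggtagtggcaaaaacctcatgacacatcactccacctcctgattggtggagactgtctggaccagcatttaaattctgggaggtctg

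In Postn the TATAAA began 26 bases before the start, in Tnc 126 bases before it and in Spp1 211 bases before it, so only in Postn did it lie close to the start. TATAAA was present in 12.4% of 32851 promoters of this length, CATTCC in 12.6% and TGANTCA in 6.75%. Of the 8 members with a listed promoter, Thbs2 also held TATAAA (126 bases before the start, on the opposite strand), Thbs4 held CATTCC at 197 and 192 bases, overlapping each other, and Sparc, Fbn1 and Bgn held none of the motifs. No member held TGANTCA. A match is a description of letters and not of a bound site.

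Postn (ENSMUSG00000027750, chromosome 3, 54361109 to 54391034, GRCm38) was at 5 and 12 normalized read counts in the control pair, 1384 and 1204 in the mdx pair, and 164 and 760 in the Sirt6mKO/mdx-labelled libraries. The groups did not overlap: control was near the floor of detection, mdx was highest, and the third group lay between them with a wide gap inside it. About 3 and 16 reads stood behind the control values, with Poisson 95% intervals of 0.935 to 13.2 and 7.05 to 20.0 normalized read counts, which cover counting error only. On the log2(value + 1) scale, which understates changes of low values, mdx was 7.19 above control (SE 0.53). The Sirt6mKO/mdx-labelled libraries were 5.33 above control and fell by 1.87 from mdx (SE 0.53), a call (criteria below) that was lost without either mdx library or without replicate 1 of the third group. Replicate 1 of the Sirt6mKO/mdx-labelled libraries decided the size of that difference, which was -0.76 without it and -2.97 without replicate 2. Those libraries differed 4.63-fold in Postn, a gap that 0.3% of genes with a mean of at least 50 matched in this group.

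**Figure D1:**
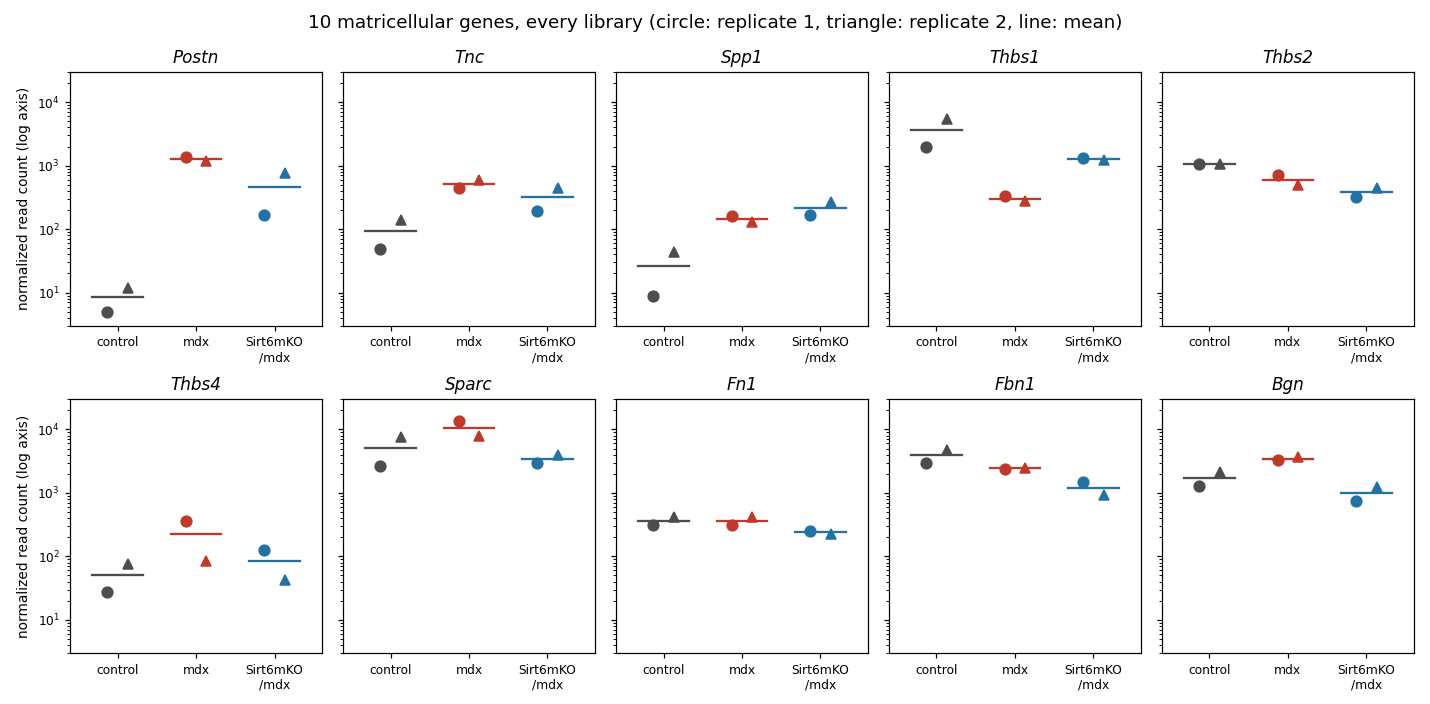
Normalized read count (log axis) of each gene in the 6 libraries, with groups on the x axis, a circle for replicate 1, a triangle for replicate 2 and a line at the mean of each pair. Postn ran from 5 to 1384, and Sparc had the highest value, 13327, in mdx replicate 1.

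Tnc (ENSMUSG00000028364, chromosome 4, 63959785 to 64047015) was at 48 and 140 in the control pair, 447 and 596 in the mdx pair, and 192 and 449 in the Sirt6mKO/mdx-labelled libraries. Both dystrophic groups lay above control, and they overlapped each other. The log2 fold change was 2.64 (SE 0.45) for mdx against control, 1.83 for the Sirt6mKO/mdx-labelled libraries against control and -0.81 between the dystrophic groups. Without control replicate 1 the first 2 were 1.88 and 1.06, and the second then missed the criteria given below, as it also did without either mdx library or replicate 2 of the third group. As with Postn, replicate 1 of the Sirt6mKO/mdx-labelled libraries was the lower one, and without it the difference from mdx was -0.20.

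Spp1 (ENSMUSG00000029304, chromosome 5, 104435118 to 104441050) was at 9 and 43 in the control pair, 162 and 129 in the mdx pair, and 164 and 266 in the Sirt6mKO/mdx-labelled libraries. Unlike Postn and Tnc, its highest library was in the third group, and its groups did not overlap, though 162 in mdx and 164 in the third group nearly met. The log2 fold change was 2.80 (SE 0.54) for mdx against control, 3.32 for the Sirt6mKO/mdx-labelled libraries against control and 0.53 between the dystrophic groups, which turned to -0.10 when libraries were scaled by their totals. The control libraries differed 4.78-fold, and the first value was 1.73 without control replicate 1 and 3.86 without replicate 2. The call for mdx was lost without mdx replicate 1 (2.63), and that for the third group without its replicate 2 (2.98). Macrophages are a known source of osteopontin in dystrophic muscle. Of 13 macrophage and leukocyte markers 12 were in the table, and 5 of them stayed at or below 10 in every library. Ptprc, the gene of CD45, was at 0 and 0 in the control pair, 5 and 3 in the mdx pair and 3 and 19 in the Sirt6mKO/mdx-labelled libraries. The summed level of these markers was 124 and 141, then 136 and 108, then 228 and 213, so it was highest in the group where Spp1 was highest. Cd68 made up most of the control sum and fell by 1.61 in mdx (adjusted p = 0.022 in limma), from 86 and 88 to 30 and 26, a call lost without any 1 control or mdx library. Lyz2, the gene of a lysozyme of macrophages, rose by 3.22 (adjusted p = 0.035 in limma), from 0 and 14 to 47 and 26, and was at 39 and 67 in the third group. Its value for mdx ranged from 1.26, with control replicate 1 left out, to 5.17, with control replicate 2 left out, and the call was lost without any 1 library other than control replicate 2. The sum does not show this rise, and the median log2 fold change of the 7 tested markers was 1.44 for mdx against control. The part of these cells in the result was not tested.

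The thrombospondins did not move as a family. Thbs1 and Thbs2 encode trimeric proteins that bind CD36 and CD47 and restrain blood vessel growth, and thrombospondin-1 also activates latent TGF-beta. Thbs4 encodes a pentamer found at tendons and muscle attachments.

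Thbs1 (ENSMUSG00000040152, chromosome 2, 118111876 to 118127133) was at 1934 and 5337 in the control pair, 329 and 278 in the mdx pair, and 1328 and 1236 in the Sirt6mKO/mdx-labelled libraries. It was the mirror image of Postn, lowest in mdx, with no overlap between any groups. Thbs1 fell by 3.41 from control to mdx (SE 0.36) and was 2.08 higher in the Sirt6mKO/mdx-labelled libraries than in mdx (SE 0.36), with values of at least 1.96 when 1 of these libraries was left out, though only without mdx replicate 1 was the call kept. Control replicate 2 carried much of the control mean: without it the difference of mdx was -2.67, and that of the Sirt6mKO/mdx-labelled libraries went from -1.33 to -0.59. That last call was kept only without control replicate 1, at -2.06.

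Thbs2 (ENSMUSG00000023885, chromosome 17, 14665500 to 14694262) was at 1051 and 1075 in the control pair, 706 and 493 in the mdx pair, and 317 and 452 in the Sirt6mKO/mdx-labelled libraries. The control libraries were nearly equal, and the groups stepped down without overlap. The log2 fold changes were -0.85 (SE 0.27) for mdx against control, -0.64 between the dystrophic groups and -1.49 for the Sirt6mKO/mdx-labelled libraries against control. Only the last met the criteria, and it missed them at -1.23 without replicate 1 of the third group.

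Thbs4 (ENSMUSG00000021702, chromosome 13, 92751590 to 92794818) was at 27 and 76 in the control pair, 363 and 86 in the mdx pair, and 124 and 43 in the Sirt6mKO/mdx-labelled libraries. The mdx pair differed 4.22-fold, and the third group overlapped both others. The mdx value against control was 1.94 (SE 0.64), and it was 0.91 without the first mdx library and 2.97 without the second. It met the criteria in the latter case and without control replicate 2, at 2.67.

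**Figure D2:**
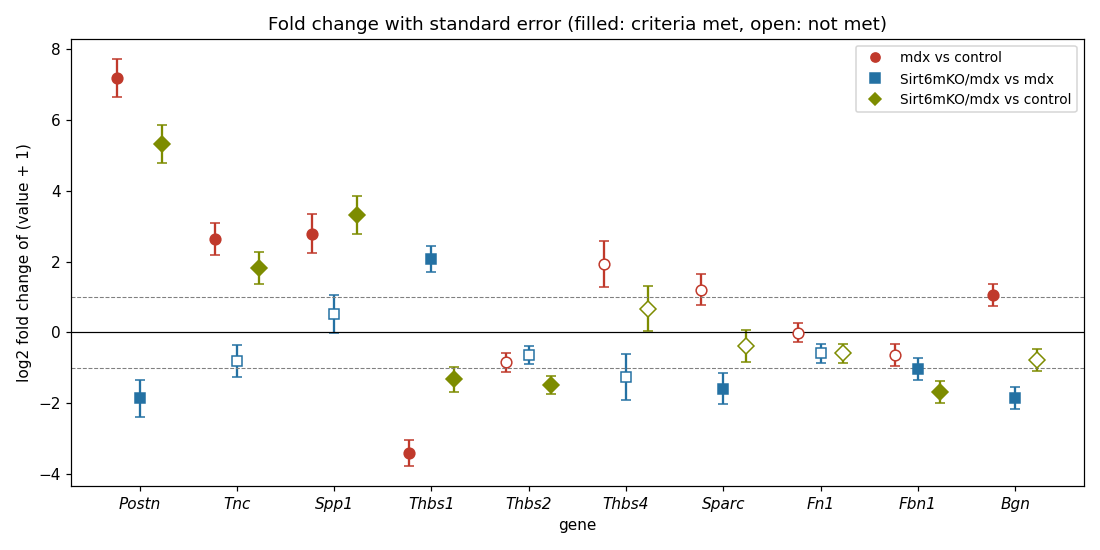
Log2 fold change of (value + 1) of the 10 genes on the y axis in the 3 comparisons, with standard errors from limma as bars; filled symbols met an adjusted p of at most 0.05 and an absolute log2 fold change of at least 1, and dashed lines mark that fold change. Postn and Thbs1 stand at the top and the bottom for mdx against control, at 7.19 and -3.41.

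Sparc, Bgn, Fn1 and Fbn1 encode proteins that build the matrix or bind its fibers. Sparc (ENSMUSG00000018593, chromosome 11, 55394500 to 55420080), which encodes the collagen-binding protein osteonectin, was at 2624 and 7480 in the control pair, 13327 and 7923 in the mdx pair, and 2992 and 3917 in the Sirt6mKO/mdx-labelled libraries. Control and mdx did not overlap, but control replicate 2 and mdx replicate 2 were close. The mdx value against control was 1.21 (SE 0.45), with 0.46 without control replicate 1 and 1.97 without control replicate 2, where it met the criteria. From mdx to the Sirt6mKO/mdx-labelled libraries it fell by 1.59, between -1.21 and -1.96 when 1 dystrophic library was left out, and the call was lost each time. Against control the Sirt6mKO/mdx-labelled libraries stood at -0.37, and at 0.38 without control replicate 2.

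Bgn (ENSMUSG00000031375, chromosome X, 73483602 to 73495933) encodes biglycan, a small leucine-rich proteoglycan that binds collagen and Toll-like receptors, and is the X-linked member. It was at 1292 and 2111 in the control pair, 3255 and 3676 in the mdx pair, and 751 and 1216 in the Sirt6mKO/mdx-labelled libraries. The order was mdx, control, then the third group, with no overlap. The mdx value against control was 1.07 (SE 0.31) and missed the criteria without any 1 of the libraries other than control replicate 2, with 0.71 without control replicate 1. Between the dystrophic groups Bgn fell by 1.86 (SE 0.31), with -1.51 and the call lost without replicate 1 of the Sirt6mKO/mdx-labelled libraries.

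Fn1 (ENSMUSG00000026193, chromosome 1, 71585523 to 71653171), the gene of fibronectin, was at 308 and 419 in the control pair, 310 and 414 in the mdx pair, and 254 and 222 in the Sirt6mKO/mdx-labelled libraries. Control and mdx overlapped fully, with a log2 fold change of -0.00 (SE 0.27), which was 0.02 when scaled by library totals. The third group was lower without overlap, at -0.59 against mdx and -0.60 against control, and was not called.

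Fbn1 (ENSMUSG00000027204, chromosome 2, 125300594 to 125507993) encodes fibrillin-1, the main protein of microfibrils, which hold latent TGF-beta. It was at 3009 and 4794 in the control pair, 2394 and 2464 in the mdx pair, and 1487 and 933 in the Sirt6mKO/mdx-labelled libraries. The groups stepped down without overlap, as with Thbs2. The log2 fold changes were -0.65 (SE 0.31) for mdx against control, -1.04 between the dystrophic groups and -1.69 for the Sirt6mKO/mdx-labelled libraries against control. The second was -0.71 without replicate 2 of the third group, and its call was lost without any 1 of the dystrophic libraries. The last call was lost, at -1.35, without control replicate 2 or replicate 2 of the third group.

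A gene was called when its adjusted p in limma (Benjamini-Hochberg over all tested genes) was at most 0.05 and its log2 fold change at least 1 in size. For mdx against control, Postn, Tnc, Spp1 and Bgn were called higher, 4 of 10, where 6.89% of all tested genes were, and Thbs1 was called lower, 1 of 10, where 7.34% were. For the Sirt6mKO/mdx-labelled libraries against mdx, Thbs1 was called higher (5.62% of tested genes) and Postn, Sparc, Fbn1 and Bgn lower, 4 of 10 (2.54% of tested genes). Against control the same libraries had Postn, Tnc and Spp1 called higher (5.19% of tested genes) and Thbs1, Thbs2 and Fbn1 lower (2.68% of tested genes). Since the choice of the members used these contrasts, nothing is read from the counts against those shares. The groups did not overlap in 9 of 10 members for mdx against control, where 57.0% of tested genes did not, in 8 of 10 between the dystrophic groups (56.0% of tested genes), and in 8 of 10 for the third group against control (51.6% of tested genes). The median log2 fold change of the members was 1.14, -0.93 and -0.48 in the 3 comparisons in this order, and that of all tested genes was 0.00, 0.02 and 0.01. The first 2 comparisons share the mdx libraries, so a value high in mdx alone enters both with opposite signs. The call counts moved to between 3 and 7, between 0 and 5 and between 2 and 5 when 1 library was left out.

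The control pair was itself spread: all 10 members were higher in control replicate 2 than in replicate 1, while 46.7% of all tested genes were. In mdx 4 of 10 and in the Sirt6mKO/mdx-labelled libraries 6 of 10 were higher in replicate 2, where 46.7% and 48.8% of tested genes were.

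Levels can be compared between genes only per length, here per kilobase of exon. On that scale Sparc was first in every library and held 41.5% to 72.5% of the summed level of the 10 genes. The second place changed: Thbs1 held it in control, with 19.1% and 22.8%, and in the Sirt6mKO/mdx-labelled libraries, with 14.6% and 10.6%, and Bgn held it in mdx, with up to 17.9%. In mdx Thbs1 made up 1.12% and 1.36%. Postn was last of the 10 in control, with 0.0345% and 0.0358%, and the fourth in mdx, with 3.28% and 4.11%. In the Sirt6mKO/mdx-labelled libraries it was at 1.26% and 4.56%, and Spp1 passed it there with 6.63% and 8.42%. The summed level of the members per kilobase was 1668 and 3853 in the control pair, 4856 and 3369 in the mdx pair and 1502 and 1917 in the Sirt6mKO/mdx-labelled libraries, so control and mdx overlapped in the sum.

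**Figure D3:**
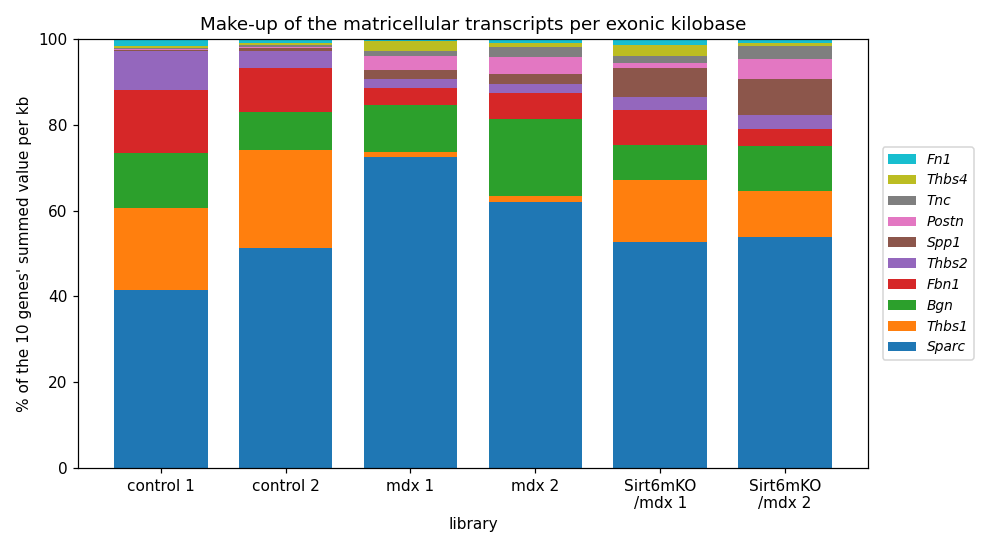
Share of each gene (stacked bars, in percent) in the summed normalized read count per exonic kilobase of the 10 genes, for each library on the x axis. Sparc fills 41.5% to 72.5% of every bar, and the Thbs1 band narrows to 1.12% and 1.36% in the mdx libraries.

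The genes whose log2(value + 1) was most like that of Postn over the 6 libraries, among 9656 genes with a mean of at least 50, were Zfp160, Vma21, Atp5g3, Gmfb and Col1a2, with Pearson r between 0.993 and 0.998. The points share libraries and depth, and the likeness is a description. Col1a2, which encodes a chain of collagen I, a partner of periostin, was at 196 and 416 in the control pair, 4730 and 6265 in the mdx pair, and 1885 and 3535 in the Sirt6mKO/mdx-labelled libraries. Zfp160 spanned a much smaller range, from 62 to 267.

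Among 22 tested genes for other matricellular proteins, 5 were called higher and 5 lower in mdx than in control. Cyr61, which had the highest mean normalized count of that list, and Ctgf are CCN proteins that bind integrins. Cyr61 was at 5915 and 8535 in the control pair, 811 and 1434 in the mdx pair, and 5836 and 5246 in the Sirt6mKO/mdx-labelled libraries. It fell in mdx by 2.72 (SE 0.34, adjusted p = 7.6e-05 in limma) and rose by 2.36 in the Sirt6mKO/mdx-labelled libraries (adjusted p = 0.00053), the same V shape as Thbs1. Ctgf, at 548 and 482, 56 and 65, and 241 and 264, rose by 2.05 in the last step (adjusted p = 0.00028 in limma). In the dystrophic comparison 4 of the 22 were called higher and 1 lower. The lower one was Fstl1, a secreted relative of Sparc, which was lower there too, with 2852 and 2482 in mdx and 761 and 851 in the Sirt6mKO/mdx-labelled libraries (-1.72, adjusted p = 0.0068 in limma), and its call was lost when any 1 dystrophic library was left out. The 5 higher calls in mdx became 2 without mdx replicate 1.

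Other genes of that list were, like Spp1, above control in both dystrophic groups. Lgals3, which encodes the sugar-binding galectin-3, was at 8 and 17 in the control pair, 170 and 81 in the mdx pair, and 115 and 194 in the Sirt6mKO/mdx-labelled libraries, 3.22 above control in mdx (adjusted p = 0.00049 in limma). Wisp2, a further CCN gene, was at 6 and 52, then 370 and 126, then 433 and 434, with 3.49 for mdx against control (adjusted p = 0.0027 in limma). That value ranged from 2.03, with control replicate 1 left out, to 4.96, with control replicate 2 left out, and its call was lost without mdx replicate 1. Smoc1, a calcium-binding protein of the SPARC family, fell from 122 and 137 in control to 7 and 21 in mdx (-3.30, adjusted p = 0.0025 in limma).

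The small leucine-rich proteoglycans other than Bgn had 2 of 12 tested genes called higher and 1 lower in mdx. Ogn, the gene of osteoglycin, with the highest mean normalized count of the list, was at 921 and 869 in the control pair, 2992 and 1340 in the mdx pair and 2295 and 3008 in the Sirt6mKO/mdx-labelled libraries, 1.16 above control in mdx (adjusted p = 0.027 in limma). Aspn (asporin) rose by 2.42 and Fmod (fibromodulin) fell by 1.63, with adjusted p of 0.041 and 0.045 in limma. These 3 calls were all lost without any 1 library other than mdx replicate 2, and in a fit of control and mdx alone. That of Fmod was lost without mdx replicate 2 too. Without mdx replicate 1 the values of Ogn and Aspn were 0.58 and 1.51, and without mdx replicate 2 that of Fmod was -1.03. Between the dystrophic groups 1 was called, Optc (opticin), which rose by 2.84 (adjusted p = 0.00094 in limma), a call lost without replicate 1 of the Sirt6mKO/mdx-labelled libraries. Bgn went the other way there.

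Of 21 tested partners of fibronectin and fibrillin, 1 was called higher and 3 lower in mdx. Mfap4, a microfibril protein, was the higher one, at 6 and 16 in control and 125 and 56 in mdx (2.96, adjusted p = 0.0031 in limma), and without mdx replicate 1 its call was lost and 2 lower calls were left. Eln (elastin) was at 144 and 79 in the control pair, 28 and 25 in the mdx pair and 125 and 82 in the Sirt6mKO/mdx-labelled libraries, and it fell by 1.97 and then rose by 1.90 (adjusted p = 0.0059 and 0.013 in limma). Emilin2 and Ltbp4, which bind elastic fibers, were the other lower ones, with -2.23 and -1.23. Emilin1 fell by 1.21 between the dystrophic groups (adjusted p = 0.011 in limma). The calls of Eln and Emilin1 there were both lost without mdx replicate 2 or either Sirt6mKO/mdx-labelled library. Ltbp1, which tethers latent TGF-beta to fibrillin and had the highest mean normalized count of the list, not corrected for length, was at 3704 and 3116, then 2497 and 1703, then 2862 and 1791, and was not called.

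Of 22 receptors of the members, 2 were called higher and 2 lower in mdx, where 6.89% and 7.34% of tested genes were. In the Sirt6mKO/mdx-labelled libraries 2 were called higher than in mdx (5.62% of tested genes). Sdc4, a syndecan that binds fibronectin together with integrins, was at 7692 and 6224 in the control pair, 1100 and 1049 in the mdx pair and 2753 and 2822 in the Sirt6mKO/mdx-labelled libraries. It fell by 2.69 and rose by 1.38 (adjusted p = 1.3e-05 and 0.0067 in limma). Lrp1, which takes up thrombospondins and had the highest mean normalized count among the receptors, not corrected for length, fell by 1.76 in mdx (adjusted p = 0.0014 in limma). Sdc1 and Itgb8 rose in mdx by 1.54 and 1.33 (adjusted p = 0.0096 and 0.044 in limma), and both calls were lost without control replicate 1, mdx replicate 1 or mdx replicate 2. Cd36, the thrombospondin receptor, was at 24 and 82 in the control pair, 29 and 9 in the mdx pair and 118 and 108 in the Sirt6mKO/mdx-labelled libraries, 2.72 higher in the last step (adjusted p = 0.014 in limma), in the direction of Thbs1. Both calls of that step were lost without mdx replicate 2 or either Sirt6mKO/mdx-labelled library. Itgb1, named after its values were seen as the common integrin chain, was at 1980 and 3159, then 4921 and 4239, then 1871 and 2787, with adjusted p of 0.078 and 0.065 in limma, and was not called.

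Among 24 tested matrix proteases and inhibitors, 6 were called higher and 4 lower in mdx, and 2 higher and 2 lower between the dystrophic groups. The mdx counts became 2 higher and 4 lower without mdx replicate 1, and 3 and 3 without mdx replicate 2. The 4 calls between the dystrophic groups became 0 to 2 when 1 dystrophic library was left out. Mmp15 and Adamts2, a membrane protease and the enzyme that trims procollagen, were 2.70 and 2.36 higher in mdx (adjusted p = 0.0018 and 0.0012 in limma). Timp3, a protease inhibitor, fell by 2.51 (adjusted p = 0.00017 in limma). Mmp14, which activates other matrix proteases, was at 267 and 298 in the control pair, 568 and 571 in the mdx pair and 175 and 216 in the Sirt6mKO/mdx-labelled libraries, and fell by 1.55 in the last step (adjusted p = 0.0015 in limma). Pcolce, which speeds procollagen trimming, fell there by 1.43 (adjusted p = 0.017 in limma). Plaur, the receptor of urokinase, fell by 2.11 in mdx and rose by 1.59 between the dystrophic groups (adjusted p = 0.0034 and 0.031 in limma). Adamts1, with the highest mean normalized count of the list, not corrected for length, was at 3890 and 2226, then 866 and 791, then 1568 and 1793, and rose by 1.02 between the dystrophic groups (adjusted p = 0.040 in limma).

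Of the genes of these 5 lists named above with a call in mdx against control, Cyr61, Ctgf, Lgals3, Smoc1, Emilin2, Sdc4, Lrp1, Adamts1, Adamts2, Mmp15, Timp3 and Plaur stayed called whichever 1 library was left out. Of those called between the dystrophic groups, Cyr61 and Ctgf did. The others named lost the call without at least 1 library.

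Other genes moved with the members, and their values stand here beside them. Thbs1 went with immediate early and dissociation genes such as Fos, which respond within minutes to stimuli including tissue digestion. All 16 of that list were called lower in mdx and all 16 were called higher in the Sirt6mKO/mdx-labelled libraries than in mdx. Their summed level was 143798 and 156445 in the control pair, 22648 and 25092 in the mdx pair and 116668 and 108427 in the Sirt6mKO/mdx-labelled libraries. Fos was at 10775 and 14930, then 1654 and 1921, then 8993 and 10412, the order of Thbs1 in its group means. The higher calls of Hspa1a and Hspa1b between the dystrophic groups were lost without any 1 dystrophic library. That of Klf6 was lost without either mdx library or replicate 2 of the third group. Egr1 and Jun lost theirs without either library of that group. Klf6 also lost its lower call in mdx without control replicate 2 or either mdx library. The other calls of the list were kept. The part of this immediate early response in the level of Thbs1 was not tested.

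Thbs4 went with some markers of fibro-adipogenic cells, the connective tissue progenitors of muscle. Pdgfra, named after its values were seen, was at 15 and 59 in the control pair, 195 and 18 in the mdx pair and 142 and 19 in the Sirt6mKO/mdx-labelled libraries. Ly6a, the gene of Sca1 that the sort selects against, was at 3 and 9, then 79 and 21, then 65 and 15, and Lum was at 82 and 82, then 315 and 64, then 316 and 102. In all 3 groups the higher library was the same one for Thbs4, Pdgfra and Ly6a. The 14 markers as a whole had summed levels of 15003 and 16089, 15666 and 9953, and 10288 and 8831, with 1 called higher and 1 lower in mdx, and Gsn, which had the highest counts, was between 3858 and 8423. Postn was 1384 and 1204 in the mdx libraries where Pdgfra was 195 and 18. In the third group it was lower in the library where Pdgfra was higher. Leaving out both libraries with the highest Pdgfra, a setting chosen after seeing the data, gave log2 values for Postn of 7.09 for mdx against control and -0.66 between the dystrophic groups, and 0.91 and -0.98 for Thbs4. With the 4 libraries left limma called no gene, Postn included, while 1932 and 975 of all genes tested had an unadjusted p under 0.05 in these comparisons, and the part of these cells in the results was not tested.

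**Figure D4:**
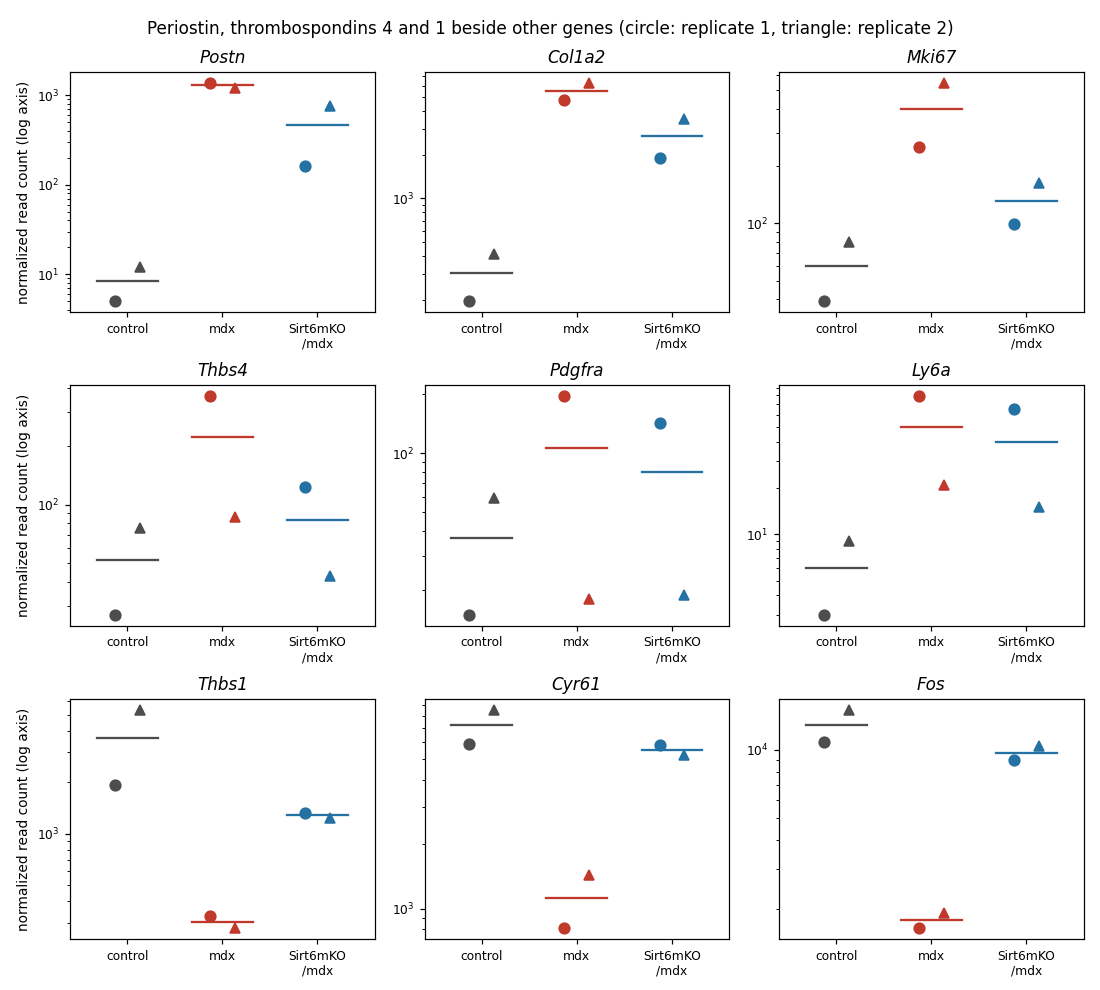
Normalized read count (log axis, a scale of its own in each panel) of Postn, Thbs4 and Thbs1 in the left column beside genes named in the text, with groups on the x axis, circles for replicate 1, triangles for replicate 2 and lines at the means. Thbs4, Pdgfra and Ly6a are higher in replicate 1 of both dystrophic groups, and Thbs1, Cyr61 and Fos are lowest in mdx.

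Of 12 proliferation genes 6 were called higher in mdx than in control and 6 were not called, and 4 were called lower in the Sirt6mKO/mdx-labelled libraries than in mdx. Of the higher calls, Mki67 and Top2a kept theirs whichever 1 library was left out, and the others were lost without mdx replicate 1. The lower calls were all lost without mdx replicate 2 or replicate 1 of the third group. There Mki67 was -0.99 without mdx replicate 2, and Mcm3 was -0.79 without replicate 1 of the third group. Mki67 was at 39 and 80, then 252 and 548, then 99 and 162, so its group means had the order of those of Postn and Tnc. The summed level of the list was 1067 and 925, 1516 and 2127, and 775 and 1319, while Pcna, with the highest mean count, was at 764 and 490 in the control pair and 378 and 290 in the mdx pair (-0.88, adjusted p = 0.045 in limma, under the fold needed for a call). Myofiber markers, among which Acta1 had the highest mean count, had 7 of 12 called lower in mdx than in control. In the Sirt6mKO/mdx-labelled libraries 7 of 12, not all the same genes, were called higher than in mdx. Their sums were 9409 and 14627, 5616 and 2321, and 13003 and 7523. The higher calls were all lost without mdx replicate 2 or replicate 1 of the third group. Without mdx replicate 2 Acta1 and Pygm rose there by 0.80 and 0.67. The lower calls of Acta1, Ckm, Mb and Pygm were also lost without mdx replicate 2, where Ckm was -0.55 and Mb -1.54. The part of the proliferation genes and the myofiber markers in the values of the members was not tested.

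Of 9 tested endothelial markers 3 were called lower in mdx. All 3 calls were lost without mdx replicate 1, and that of Kdr without any 1 library. The sum of the list was 1091 and 1036, 489 and 494, and 733 and 749, lowest in mdx as Thbs1 was. Tek, which made up most of that sum, was between 348 and 669, and Erg, which defines endothelial cells, was at 0 in every library. The endothelial genes Pecam1, at 199 and 86, then 20 and 47, then 67 and 114, and Cdh5, at 11 and 21, then 2 and 5, then 19 and 30, were lowest in mdx. Kdr was too, at 15 and 13, then 2 and 0, then 19 and 9. All 9 tested had a log2 fold change above 0 between the dystrophic groups, and none was called there. The part of these markers in the level of Thbs1 was not tested. Of 7 tested tendon markers 2 were called lower in mdx, Fmod and Mkx. The call of Fmod was lost without any 1 library, and that of Mkx without any 1 other than replicate 2 of the third group. The sums of the list were between 80 and 175. Scx, which defines tendon cells, was at 6 and 7 in the control pair, 16 and 24 in the mdx pair and 45 and 52 in the Sirt6mKO/mdx-labelled libraries. It was called higher than control in the third group (2.72, adjusted p = 0.017 in limma) and not in mdx, the call was lost without control replicate 2 or either library of that group, and its part in the members' values was not tested. Of 9 tested smooth muscle and pericyte markers 1 was called higher and 1 lower in mdx, and 1 lower between the dystrophic groups. The higher one was Acta2, at 807 and 1604, then 2837 and 2334, then 924 and 1558 (1.18, adjusted p = 0.027 in limma), highest in mdx as Sparc and Bgn were. Its value was 0.68 without control replicate 1, and the call was lost without any 1 library other than control replicate 2. Tagln, at 532 and 838, then 534 and 1081, then 201 and 328, fell by 1.56 between the dystrophic groups (adjusted p = 0.012 in limma). Its value was -1.05 without mdx replicate 2, and the call was lost without that library or either Sirt6mKO/mdx-labelled one. The part of these markers in the members' values was not tested. Their sum was 9642 and 9133, 7831 and 9073, and 4802 and 5058, most of it Notch3, which MuSCs also express, and Myh11, which defines smooth muscle, was between 6 and 34. Schwann markers summed to between 133 and 244, most of it Ngfr.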

How the data were processed

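Total RNA of sorted MuSCs was depleted of ribosomal RNA and sequenced on an Ion Torrent instrument (6 libraries, 2 per group). The authors used Reaper for trimming, STAR (2.4.2a in the processing notes) for alignment to GRCm38, and counted reads per gene with featureCounts 1.4.5-p1, leaving out reads of several genes or places. Use of strand was not stated, so values of overlapping antisense genes (at most 34 beside Tnc, Fn1 and Fbn1) could be mixed in. The deposited values are a score: read counts that the authors divided by 1 size factor per library (0.537 to 1.53, recovered from the spacing of the values) and rounded. They are not raw counts, so the authors' DESeq2 was not repeated. In its place limma 3.58.1 (R 4.3.3) was fitted to log2(value + 1) of 15915 genes with a mean of at least 5, with a prior variance that follows the mean, all 6 libraries and no block, after a test on simulated data. Called genes had adjusted p-values up to 0.05 and an absolute log2 fold change of at least 1. Exonic lengths came from GENCODE M21, which held 98.5% of genes, and promoters from RefSeq (GRCm38.p6), for 8 of 10 members.

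The members, gene lists and tests were chosen with earlier results of these data known. Named were all members, of each matrix, receptor and protease list up to 4 called genes with the largest change in each of the first 2 comparisons and the gene with the highest mean normalized count, that gene of each marker list, the 5 genes most like Postn (Pearson r), and Sirt6, Dmd, Xist, Ddx3y and Pax7. One gene that this rule names is not reported here. Fos, Mki67, Pdgfra, Ly6a, Lum, Itgb1, Ptprc, Lyz2, Scx, Erg, Pecam1, Cdh5, Kdr, Acta2, Tagln, Myh11, Chrdl2, Ckm, Mb, Pygm, Top2a, Mcm3, Mkx, Hspa1a, Egr1, Jun and Klf6 were named after their values were seen. The study's own stress response list, picked on these libraries as higher in mdx, contains Tnc, Spp1 and Thbs4 and was not used. Alternatives changed the pseudocount, the minimum mean, the scaling, the prior variance, the libraries and the block.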

Additional observations from a re-analysis of the deposited data

How the results depend on the processing

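Of 510 recomputed log2 fold changes of the 10 genes, 481 moved by less than 1 SD between replicates, 29 moved further, and no called one changed sign. The number of called members for mdx against control, for the Sirt6mKO/mdx-labelled libraries against mdx and for these against control (5, 5 and 6) became 2, 0 and 1 with no minimum mean, 2, 0 and 0 with one prior variance for all genes, and 0, 0 and 0 without both libraries with the highest Pdgfra, a setting added after seeing the data in which 4 libraries of 3 groups leave little to estimate the spread from and no gene at all was called. A pseudocount of 0.1 gave 2 between the dystrophic groups, and library totals gave 9 there. Leaving out 1 library gave 3 to 7, 0 to 5 and 2 to 5. In these fits a lone library was assumed to vary like the other groups. The number of called genes in the 5 related lists (31, 14 and 20) became 20, 4 and 3 with no minimum mean, 8, 0 and 0 with one prior variance, and 0, 0 and 0 without the highest Pdgfra libraries. Library totals gave 35 and 36 in the last 2 comparisons, and the 2 groups alone gave 12 in the last. Without 1 library the ranges were 17 to 32, 3 to 17 and 3 to 15. The cause of these changes was not tested, apart from the shift that follows.

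Scaling by library totals moved the median of all tested genes to -0.58 in both comparisons of the Sirt6mKO/mdx-labelled libraries. There 14.0% and 14.5% of all calls were higher, against 68.8% and 65.9% in the fit as reported, and member values should be read relative to that shift. Counts over all tested genes for the 3 comparisons were 1097 higher and 1168 lower, 895 and 405, and 826 and 427. With no minimum mean they were 417 and 572, 154 and 14, and 169 and 52. With one prior variance they were 181 and 360, 0 and 0, and 65 and 22.

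The labels do not say whether the replicate numbers pair the libraries. Differences between replicates correlated across genes at -0.13, 0.12 and 0.01 between groups, which cannot show how the libraries were prepared. With a replicate block 7, 5 and 6 members and 33, 16 and 23 genes of the lists were called. With the numbers of the control libraries exchanged, a setting added after seeing the data, the members called were 6, 6 and 6. Depth limits the control values of Postn and Spp1 most.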
